A study of Mus musculus with 4 samples.

Results

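The CCAAT/enhancer-binding protein (C/EBP) genes were examined for open chromatin by ATAC-seq in RAW264.7, a macrophage-like line of mouse origin. The 6 genes were taken by name (Cebpa, Cebpb, Cebpd, Cebpe, Cebpg and Cebpz), of 21467 protein-coding genes to which a transcription start site (TSS) could be given. For each gene, every peak was read from 50 kb before its 5′ end to 10 kb past its 3′ end, and a peak was placed at the promoter when its summit lay within 1 kb of the TSS. All cells were wild type and carried 25 ug/mL DIL-oxLDL, oxidized low-density lipoprotein with a fluorescent dye, for 24 h. The control group (2 libraries) was given DMSO, and the esculetin group (2 libraries) was given 40 ug/mL esculetin, a plant coumarin, over the same time. Both groups are 1 cell line, and no label says whether the libraries of a group came from separate cultures, so their spread may be technical.

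C/EBP proteins are basic leucine zipper factors that bind DNA as dimers. C/EBPα sets up the myeloid lineage, C/EBPβ and C/EBPδ act in inflammatory and lipid-handling macrophages and in adipocytes, and C/EBPε acts late in granulocyte maturation. C/EBPγ lacks a strong activation domain and works mainly as a dimer partner. Cebpz shares the family name because its product was found as a CCAAT-box binding factor, but that product has no leucine zipper and is related to proteins of ribosome assembly.

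The libraries differed in the length of their lists and in depth. Control replicates 1 and 2 held 19595 and 27833 peaks, and esculetin replicates 1 and 2 held 8677 and 12792. The genome-wide background coverage, a measure of depth, was between 4.08 and 6.51 reads. Control replicate 2 stood apart, with 51.6% of its 1000 strongest peaks inside annotated pseudogenes against 0.3% to 1.7% in the other libraries. Values without it are given for the Cebpb promoter, the Cebpd percentiles and the regions of the windows. The counts over gene lists include it. Of 10 macrophage marker genes, 5 and 6 had a promoter peak in the controls and 1 and 4 in esculetin replicates 1 and 2, where the shares over all coding genes were 37.3%, 38.8%, 27.9% and 34.9% in the same order. Of these markers 1 (Spi1) had one in all 4 libraries (24.8% of coding genes) and 3 (Csf1r, Adgre1 and Itgam) had none in any library (56.4%), at the single 5′ end used for each gene. None of 15 markers of T cells, B cells, epithelium, endothelium and fibroblasts had a promoter peak in any library.

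The promoters of Cebpa, Cebpb and Cebpg are shown because the peaks described next lie on them. The sequences are from RefSeq on GRCm38.p6, the primary chromosomes of which are those of mm10, and run 5′ to 3′ on the strand of the gene with 250 bases before the TSS and 50 from the TSS on. Bases are counted from 1 at the left end. Cebpa lies at chr7:35119043-35119342 on the plus strand, Cebpb at chr2:167688665-167688964 on the plus strand, and Cebpg at chr7:35056517-35056816 on the minus strand. Cebpd, Cebpe and Cebpz had no entry in the table. Capitals mark a TATA box (the letters TATAAA), a GC box (the letters GGGCGG) or a CCAAT box, which in Cebpg is on the other strand.
Cebpa: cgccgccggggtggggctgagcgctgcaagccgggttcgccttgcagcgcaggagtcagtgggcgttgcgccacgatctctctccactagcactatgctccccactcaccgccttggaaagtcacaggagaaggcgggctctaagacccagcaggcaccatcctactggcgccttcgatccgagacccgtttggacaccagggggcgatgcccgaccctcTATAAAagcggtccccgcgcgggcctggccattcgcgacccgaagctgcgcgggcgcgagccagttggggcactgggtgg
Cebpb: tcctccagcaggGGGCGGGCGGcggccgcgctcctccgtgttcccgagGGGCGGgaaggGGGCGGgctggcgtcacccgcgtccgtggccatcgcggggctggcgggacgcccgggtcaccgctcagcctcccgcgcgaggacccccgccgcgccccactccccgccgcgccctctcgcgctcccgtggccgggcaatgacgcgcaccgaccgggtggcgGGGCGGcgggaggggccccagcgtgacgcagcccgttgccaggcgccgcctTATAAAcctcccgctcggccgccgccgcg
Cebpg: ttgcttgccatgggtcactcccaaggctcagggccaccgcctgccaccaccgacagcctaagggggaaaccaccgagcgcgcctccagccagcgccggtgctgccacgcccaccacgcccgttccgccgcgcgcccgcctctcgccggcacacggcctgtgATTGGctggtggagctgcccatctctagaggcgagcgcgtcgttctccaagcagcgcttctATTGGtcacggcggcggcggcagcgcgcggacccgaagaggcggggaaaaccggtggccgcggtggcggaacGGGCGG

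The Cebpb promoter was the richest in G and C, at 80.7%, which is above 99.0% of the 21263 promoters of coding genes in the table, and it held 50 CpG sites. Cebpg had 71.7% and 38 CpG sites, and Cebpa 67.3% and 29, against medians of 56.3% and 13. The Cebpa promoter held TATAAA at bases 221 to 226, 30 bases before the TSS. Cebpb held TATAAA at bases 272 to 277, which is 21 bases past the TSS used here, and 5 GC boxes, of which the pair at bases 13 to 22 overlap. Whether this 5′ end is the main start of Cebpb in these cells was not tested, and the distances given for Cebpb are counted from it. Cebpg held no TATAAA but a pair of CCAAT boxes, which bind the factor NF-Y, 89 and 28 bases before the TSS, and 1 GC box at bases 295 to 300. On either strand, the TATA box was present in 12.6% of all those promoters, the GC box in 46.2% and the CCAAT box in 38.2%. Motifs bound by C/EBP proteins and their partners were also searched on both strands. The palindromic C/EBP site TTGCGCAA (held by 0.221% of all promoters), its variant TTGCGTAA (0.202%) and the looser form TTGCNNAA that includes both (10.2%) were not in these 3 windows. Nor were the letters of the composite C/EBP and ATF site TTGCATCA (0.865%), of TGACGCAA, which joins parts of a cyclic AMP and a C/EBP site (0.644%), of the cyclic AMP response element TGACGTCA (2.23%), of the AP-1 site TGACTCA (4.66%), of the ETS site GAGGAAGT, of the kind that PU.1 binds (3.13%) or of the RUNX site TGTGGT (14.97%).

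A promoter peak was called in all 4 libraries for 3 of the 6 genes (Cebpd, Cebpg and Cebpz), where the share over all coding genes was 24.8%. Cebpb had one in every library but control replicate 1, a pattern found in 0.685% of coding genes. Cebpa had one in control replicate 1 and esculetin replicate 2 only (0.582% of coding genes), and Cebpe in control replicate 2 alone (2.47%). No member had a promoter peak in both esculetin libraries and neither control (0.41% of coding genes), nor in both controls and neither esculetin library (3.34%). Control libraries thus held 4 and 5 of the 6 promoters (37.3% and 38.8% of all coding genes), and esculetin libraries 4 and 5 (27.9% and 34.9%).

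**Figure D1:**
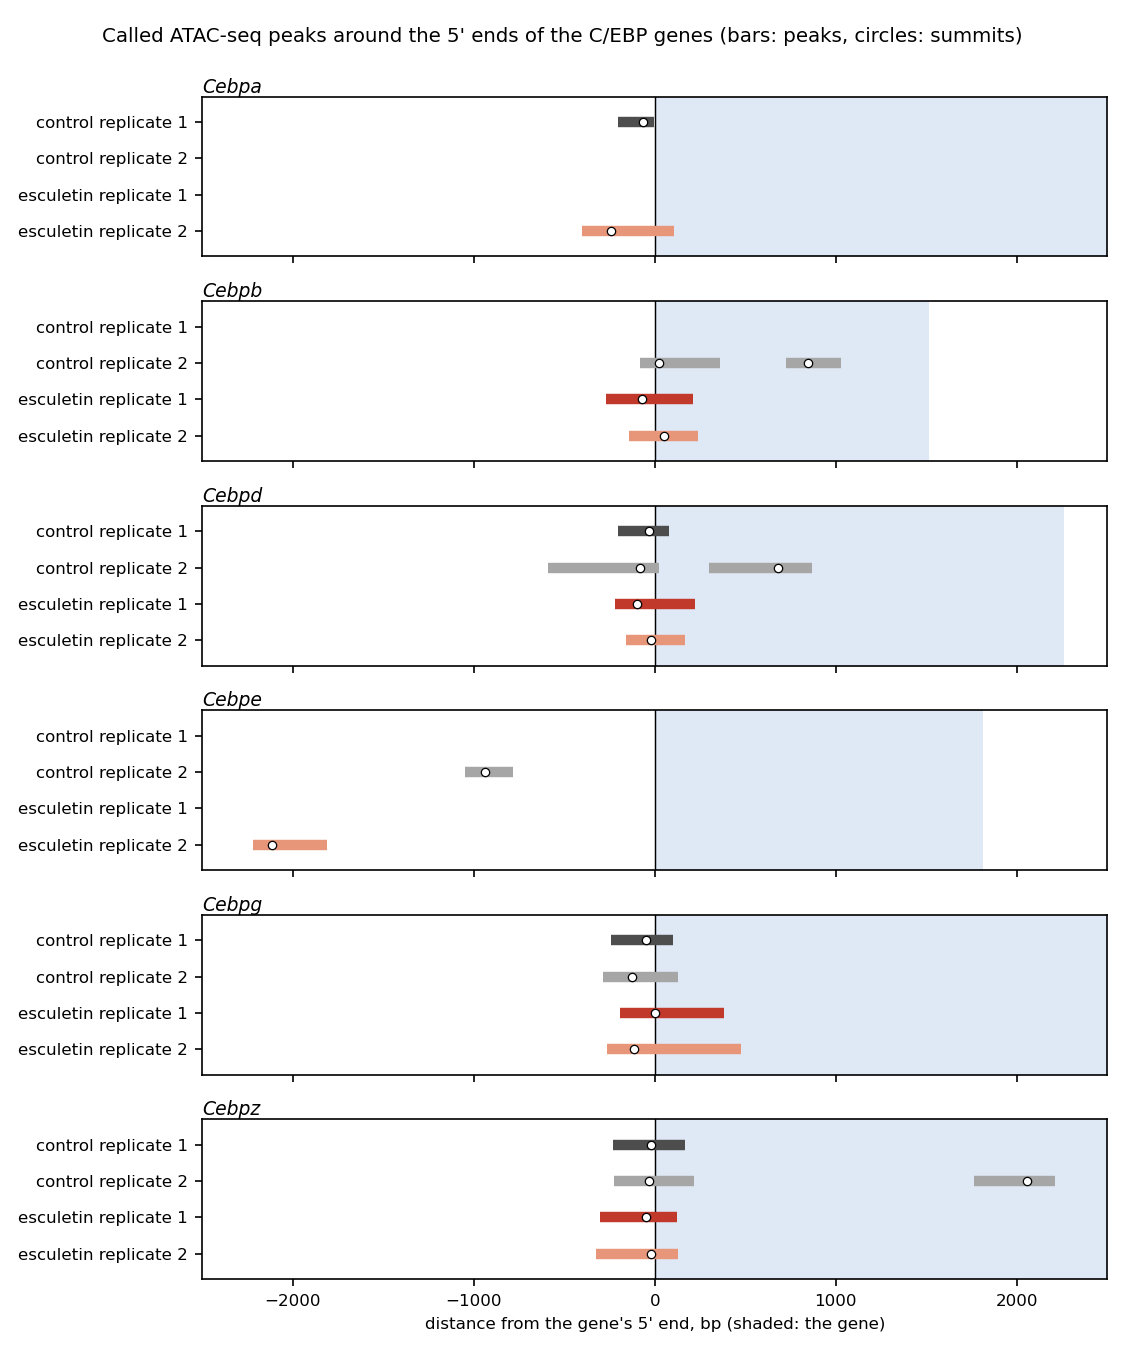
Peaks called within 2.5 kb of the 5′ end of each C/EBP gene, by library. The horizontal axis is the distance from the TSS in bp along the gene, bars are peaks, circles are summits and shading is the gene. Cebpd, Cebpg and Cebpz carry a bar over the TSS in all 4 libraries, Cebpb in 3, and the bars inside Cebpb, Cebpd and Cebpz past the TSS belong to control replicate 2.

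Cebpb, which encodes C/EBPβ, has no intron and spans 1518 bp (chr2:167688915-167690432). In esculetin replicate 1 its peak was 482 bp wide, with a summit 70 bp before the TSS at base 181 of the printed sequence, and it covered all 300 of those bases. In esculetin replicate 2 the peak was 383 bp wide with its summit 50 bp past the TSS, and in control replicate 2 it was 447 bp wide with its summit 26 bp past the TSS, at base 277, on the last base of TATAAA. These 3 peaks therefore overlapped each other on that 5′ end, and no peak of control replicate 1 touched them.

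The strength of a peak is given in 2 ways. The percentile is the place of a peak within the list of its own library by −log10 p, and it depends on the length of that list. The summit coverage is the number of overlapping reads at the summit, which was solved from the fold and the p of the peak and divided by the genome-wide background coverage of the library. Its 95% intervals are exact Poisson intervals that cover counting error only.

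At the Cebpb TSS the summit coverage was 32 reads in esculetin replicate 1, or 6.44 times the background (95% interval 4.41 to 9.09). It was 34 reads in esculetin replicate 2 (8.29 times, 5.74 to 11.6) and 31 reads in control replicate 2 (7.60 times, 5.16 to 10.8). On this scale the control value lay between the esculetin values, and the 3 intervals overlapped. The deposited fold, taken over the local background, was 3.29 in control replicate 2 and 3.83 and 3.85 in esculetin replicates 1 and 2. By fold both esculetin values thus lay above that of this 1 control. Control replicate 2 had a further peak 847 bp into the gene that was stronger, with 42 reads (10.3 times, 7.42 to 13.9) and a fold of 4.51. Percentiles were 39.0 and 45.6 with esculetin, and 22.7 at the TSS and 62.9 in the gene for control replicate 2. In control replicate 1 a call would have needed 23 to 29 reads, or 3.53 to 4.46 times the background, if its local background stood as in the other libraries. That range lies below the value of every other library at the TSS, and its upper end is just above the lower bound of esculetin replicate 1. Without control replicate 2, the Cebpb promoter was called in both esculetin libraries and not in the control, as were 1.09% of coding genes. When each list was cut to the 8677 strongest peaks, the length of the shortest list, the Cebpb promoter was again called in the esculetin libraries only, as were 4.11% of coding genes, because the ranks of both control replicate 2 peaks (21506 at the TSS and 10321 in the gene) were past that limit, against 5291 and 6962 in the esculetin libraries.

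Cebpa (chr7:35119293-35121928), the gene of the lineage factor C/EBPα, had a narrow, weak peak in control replicate 1 and a wider one in esculetin replicate 2. The first was 200 bp wide, the shortest width in the list, at percentile 10.2, with a summit 65 bp before the TSS and 24 reads (3.69 times the background, 2.36 to 5.49). The second was 509 bp wide at percentile 43.5, with a summit 242 bp before the TSS and 28 reads (6.83 times, 4.54 to 9.87). The intervals overlapped. The first peak covered bases 48 to 247 of the printed promoter and included TATAAA, and the second covered all 300 bases. In control replicate 2 and esculetin replicate 1 a call would have needed 3.43 to 3.92 and 3.42 to 3.83 times the background, and the value of control replicate 1 lies inside both ranges. The peak of control replicate 1 ended 4 bp before the TSS, while that of esculetin replicate 2 ran over it. Each group thus had 1 library with a call and 1 without.

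Cebpd (chr16:15887286-15889545), also intronless and the gene of the inflammation-induced C/EBPδ, had a peak over the TSS in all 4 libraries. Summits lay 31 and 81 bp before the TSS in control replicates 1 and 2, and 97 and 22 bp before it in esculetin replicates 1 and 2. Percentiles were 63.0 and 22.9 in the controls and 45.9 and 37.9 with esculetin, so the esculetin values lay inside the range of the controls. Mean percentiles of 43.0 ± 28.3 (control) and 41.9 ± 5.67 (esculetin; SD, n = 2 each) were -1.09 apart, with an exact permutation p of 1. The direction turned with single libraries: the difference was 18.9 without control replicate 1, 2.92 without esculetin replicate 2, -21.1 without control replicate 2 and -5.10 without esculetin replicate 1. The summit coverage was 6.15 and 6.62 times the background in the controls and 5.84 and 5.61 times with esculetin. On this scale both esculetin values lay below both controls, which was so for 10.3% of the 5323 coding genes with a promoter peak in all 4 libraries, but all 4 intervals overlapped (3.56 to 8.42 in esculetin replicate 2 and 4.36 to 9.63 in control replicate 2). The deposited fold, taken over the local background, went the other way, with 4.14 and 3.58 in the controls and 4.49 and 4.48 with esculetin (exact permutation p = 0.33), and both esculetin folds lay above both controls in 21.4% of those genes.

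Cebpe (chr14:54710363-54712174), the gene of the granulocyte factor, had 2 peaks in its window in all. A peak with 21 reads (5.15 times the background) lay 939 bp before the TSS in control replicate 2, at percentile 22.6. Another with 22 reads (5.37 times) lay 2113 bp before it in esculetin replicate 2, at percentile 24.9 and outside the promoter. The 2 peaks did not overlap, neither covered the TSS, and control replicate 1 and esculetin replicate 1 had none in the window. A call at the site of the first would have needed 2.77 times the background in control replicate 1, and 3.22 and 3.41 times in esculetin replicates 1 and 2.

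Cebpg (chr7:35046422-35056566) encodes the dimer partner C/EBPγ and had a promoter peak in all 4 libraries. Percentiles were 79.5 and 74.1 in the controls and 56.4 and 61.9 with esculetin, and the groups did not overlap. The means were 76.8 ± 3.84 and 59.2 ± 3.89 (SD, n = 2 each), and the difference of -17.6 exceeded both SDs. The exact permutation p was 0.33, the smallest that 2 libraries per group allow, so no comparison given here could pass a conventional threshold. Both esculetin percentiles lay below both controls in 29.5% of the 5323 genes, and the medians of those genes were 80.2, 75.2, 63.8 and 76.1 in the same order of libraries, so Cebpg lay below the median in each. By summit coverage the groups overlapped, with 6.45 and 8.34 times the background in the controls and 6.44 and 7.56 times with esculetin. By rank among equal numbers of top peaks the difference was 14.9 in the opposite direction. The peak was wider with esculetin, 575 and 740 bp against 343 and 413 bp (657.5 ± 117 and 378 ± 49.5, SD, n = 2 each; exact permutation p = 0.33), and reached further into the gene. Both esculetin widths lay above both controls in 17.9% of the 5323 genes, whose median widths were 514 and 522 bp in the controls and 463 and 519 bp with esculetin. Over the whole lists the median peak was 329 and 335 bp wide in the controls and 373 and 358 bp with esculetin. All 4 peaks covered both CCAAT boxes of the printed promoter, and the summits fell at bases 205 and 127 in the controls and at 254 and 137 with esculetin. The peaks also lie inside Gm45095, a gene on the other strand whose TSS is 1083 bp away.

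Cebpz (chr17:78919003-78937070) had the strongest promoter peak of the 6 genes by percentile in each library. Its TSS lies 36 bp from that of Ndufaf7, a gene for assembly of respiratory complex I that runs the other way, and 1 peak covered both starts, so it cannot be assigned to either. Percentiles were 82.9 and 83.5 in the controls and 79.6 and 71.4 with esculetin (83.2 ± 0.44 and 75.5 ± 5.78, SD, n = 2 each; exact permutation p = 0.33), without overlap. Both esculetin percentiles lay below both controls in 29.5% of the 5323 coding genes with a promoter peak in all 4 libraries. The difference of -7.65 exceeded both SDs, but it was -1.88 with overlapping groups when peaks were ranked by fold enrichment and 14.6 with equal numbers of top peaks. Leaving out esculetin replicate 2 gave -3.56, and leaving out esculetin replicate 1 gave -11.7. The summit coverage was 6.76 and 11.5 times the background in the controls and 8.05 and 8.78 times with esculetin, so the esculetin values lay inside the range of the controls.

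**Figure D2:**
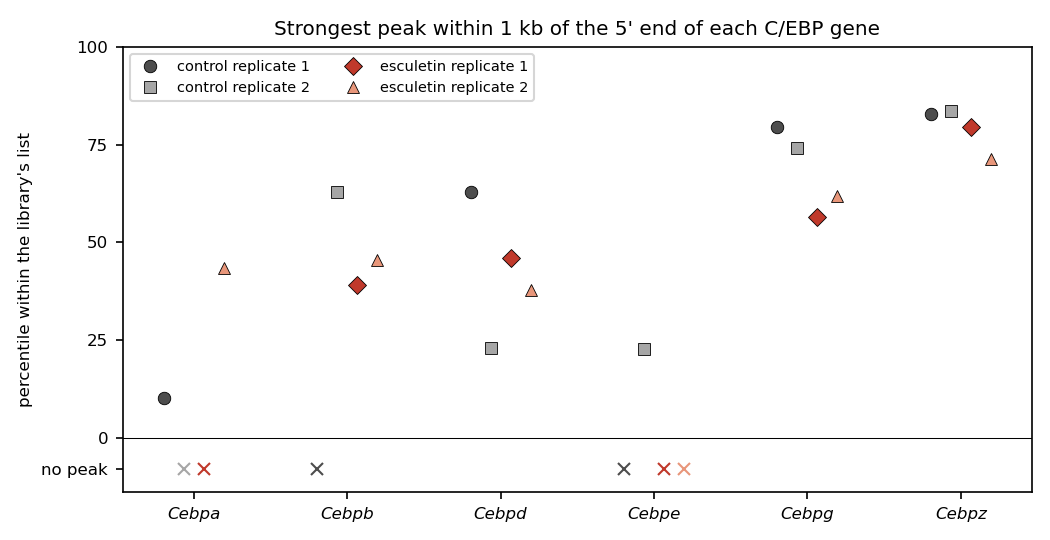
Percentile, within the list of each library, of the strongest peak within 1 kb of the 5′ end of each C/EBP gene. Points are single libraries and crosses mark libraries with no promoter peak. At Cebpg and Cebpz both esculetin points lie below both control points, and at Cebpd they lie between them.

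**Figure D3:**
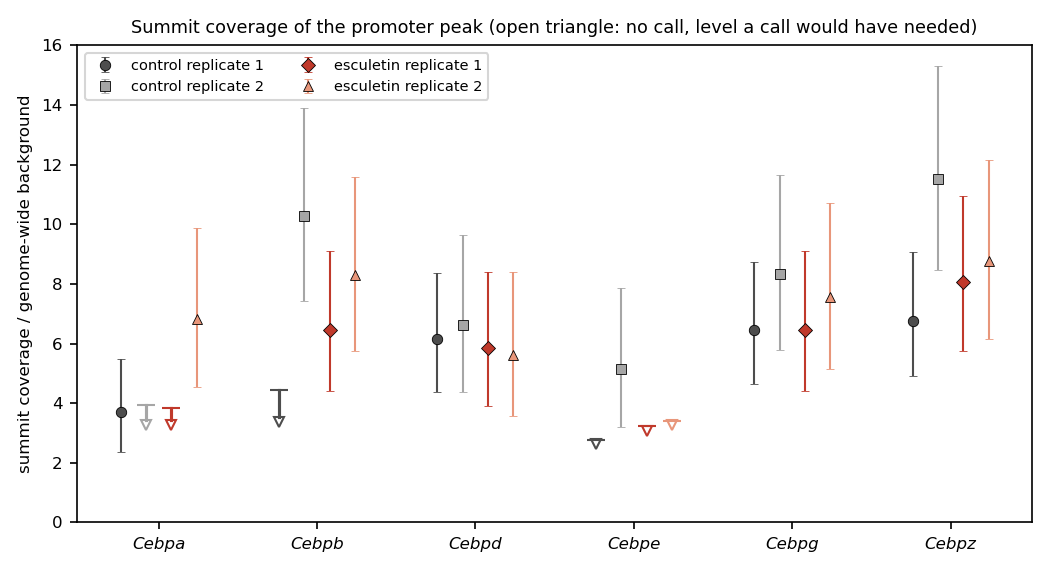
Summit coverage of the strongest promoter peak over the genome-wide background coverage of its library, with exact Poisson 95% intervals. Open triangles with a bar mark libraries with no call and span the level a call would have needed. The intervals overlap between groups at every gene called in both groups, and the value of control replicate 2 at Cebpb is that of its peak 847 bp into the gene.

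The ratio of the group means of summit coverage, esculetin over control, was 0.897 at Cebpd, 0.947 at Cebpg and 0.921 at Cebpz, where the median over the 5323 genes was 1.04. Of those genes, 29.6%, 37.3% and 32.8% had a lower ratio, which places the 3 genes well inside the range of coding promoters.

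The windows held 22 regions in all when overlapping peaks of the 4 libraries were merged. Each library contributed 10 and 17 peaks in the controls and 5 and 11 with esculetin, each peak counted once. Per 1000 peaks of the list this was 0.51 and 0.611 in the controls and 0.576 and 0.86 with esculetin. On this scale esculetin replicate 1 lay between the controls and esculetin replicate 2 above both. By gene, the windows of Cebpb held 3 and 4 peaks in the controls and 2 and 5 with esculetin, and those of Cebpd 2 and 4 against 1 and 1 (exact permutation p = 0.33). The windows of Cebpg held 2 and 3 against 1 and 1 (p = 0.33 in the exact permutation test), those of Cebpz 2 and 5 against 1 and 2, those of Cebpa 2 and 1 against 0 and 1, and those of Cebpe 0 and 1 against 0 and 1. The median over all coding genes was 1 and 2 in the controls and 1 and 1 with esculetin. The mean over all coding genes was also lower with esculetin, at 0.88 and 1.23 against 1.74 and 2.49 in the controls. The share of all coding genes with both esculetin counts below both controls, as at Cebpd and Cebpg, was not computed.

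**Figure D4:**
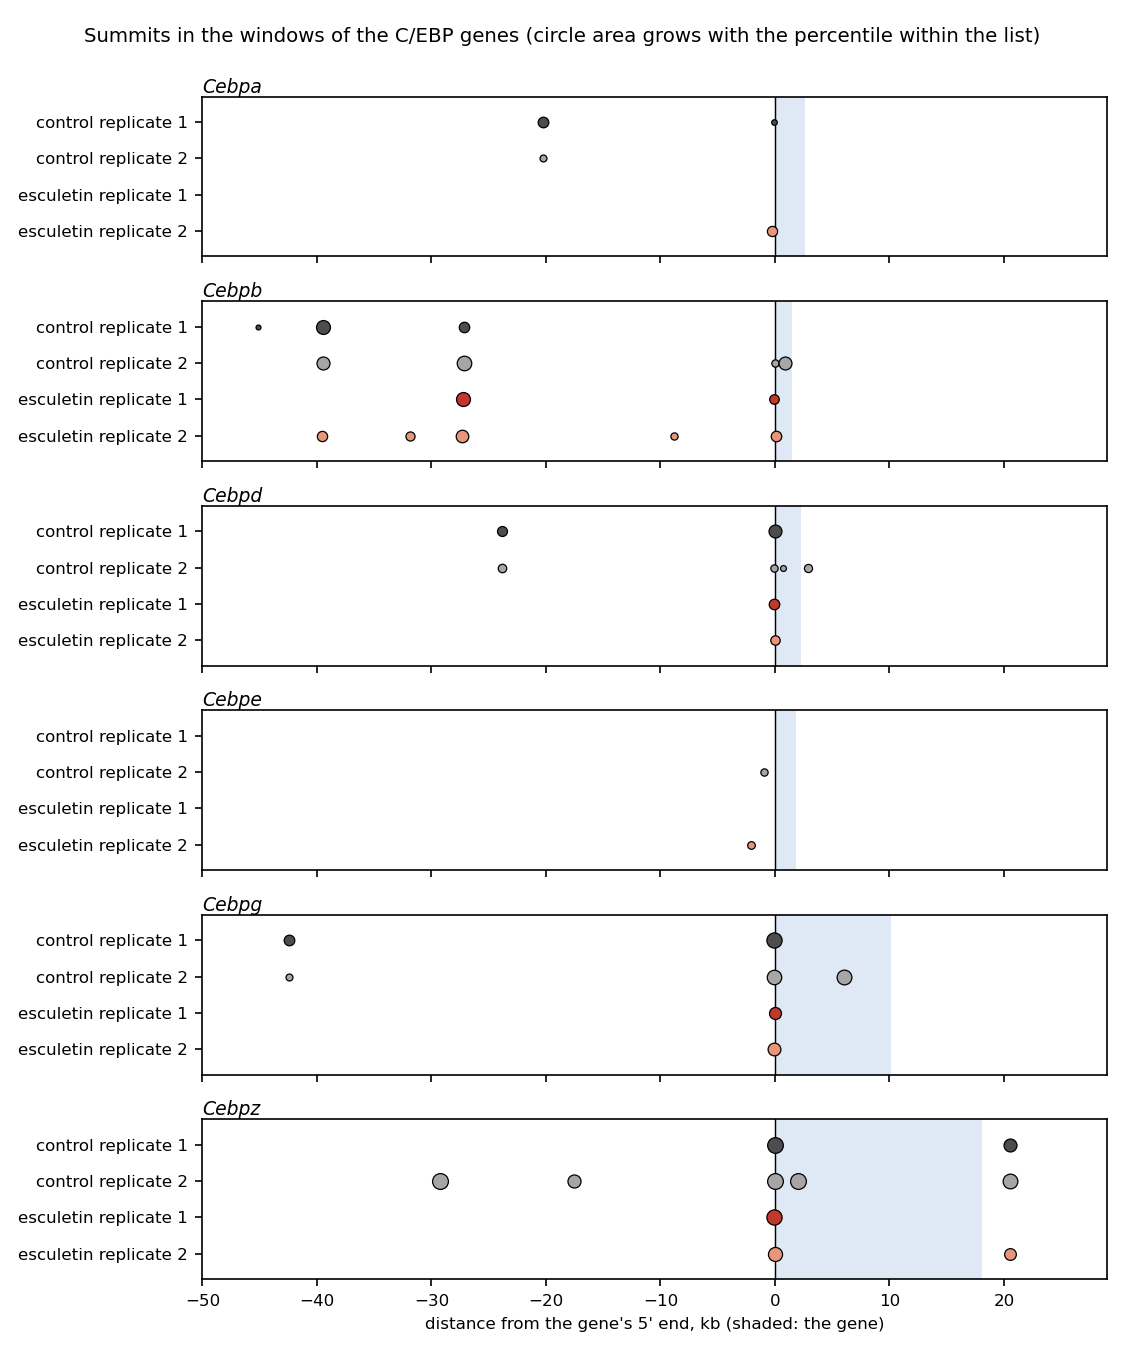
Peak summits in the window of each C/EBP gene, from 50 kb before its 5′ end to 10 kb past its 3′ end, by library. The horizontal axis is the distance from the TSS in kb, and larger circles are peaks of higher percentile. The Cebpb window has a site about 27 kb before the TSS, at an end of Tmem189, in all 4 libraries. The sites upstream of Cebpa and Cebpd are in the control rows alone.

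Of the 22 regions, 4 were called in all 4 libraries (17.2% of all 36037 regions of the series), 2 in both controls and no esculetin library (13.9%), none in both esculetin libraries and no control (0.832%), and 8 in control replicate 2 alone (35.1%). Without control replicate 1, 10 of the 21 regions still called were in the control alone (55.7% of all regions still called). Without control replicate 2 it was 3 of 14 (40.1%), and without esculetin replicate 2 it was 4 of 19 (21.4%). In the esculetin libraries alone there was 1 of 14 regions without control replicate 2 (2.25%) and 3 of 22 without esculetin replicate 1 (7.89%). The 4 shared regions were the promoters of Cebpd, Cebpg and Cebpz and a site at chr2:167661401-167661929, 27148 to 27294 bp before the TSS of Cebpb. That site spans an end of Tmem189, at 167661544, and had percentiles of 45.4 and 74.7 in the controls and 70.5 and 60.4 with esculetin. Its summit coverage was 5.38, 9.56, 8.05 and 9.27 times the background in the same order, so the groups overlapped. Another site in the Cebpb window lay inside Tmem189, at chr2:167649255-167649642 and 39449 to 39533 bp before the Cebpb TSS. It was called in both controls (percentiles 70.1 and 63.4) and in esculetin replicate 2 (44.0), with 6.45, 9.07 and 7.07 times the background. Whether either site acts on Cebpb was not tested. Esculetin replicate 2 alone had peaks 31867 and 8800 bp before the Cebpb TSS, at percentiles 35.5 and 22.1, and control replicate 1 alone had one 45183 bp before it, at percentile 5.64.

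The 2 regions of the controls alone lay away from the starts of the C/EBP genes. The first, at chr7:35098883-35099149, lay between Cebpg and Cebpa, whose starts are 62727 bp apart and whose windows share 37274 bp. It was 20293 and 20248 bp before the TSS of Cebpa, and it had percentiles of 46.5 and 20.05 and summit coverage of 30 and 20 reads (4.61 and 4.90 times the background). The second, at chr16:15863264-15863581 in the window of Cebpd, spanned the starts of Mzt2 and of the lncRNA gene Gm41425, which are 68 bp apart. It had 29 and 22 reads (4.46 and 5.39 times) at percentiles 41.7 and 31.1. With the 8677 strongest peaks of each library, neither region was called in a control library, so both rest on the lower part of the longer lists.

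Inside the gene and past the TSS peak, Cebpb, Cebpd, Cebpg and Cebpz had a peak in control replicate 2 and in no other library. These peaks lay 847 bp into Cebpb, 683 bp into Cebpd, 6025 bp into Cebpg and 2056 bp into Cebpz, with summit coverage of 10.3, 6.13, 8.58 and 11.8 times the background. In control replicate 2 peaks covered 43.8% of the length of Cebpb and 26.2% of Cebpd, against 0% and 3.63% in control replicate 1 and 14.03% and 10% in esculetin replicate 1. In esculetin replicate 2 the shares were 15.9% and 7.57%. Control replicate 2 alone also had a peak 2853 bp past the TSS of Cebpd, beyond its 3′ end and inside Spidr, and peaks 17522 and 29284 bp before the TSS of Cebpz, at percentiles 28.8, 64.1 and 84.1. Over all coding genes, a peak in the gene more than 1 kb from the TSS was called in control replicate 2 alone in 13.8%, as at Cebpg and Cebpz. No share over all coding genes was computed for peaks nearer to the TSS, as at Cebpb and Cebpd. This was the library with many peaks in pseudogenes, and the part of that in these peaks was not tested.

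Next, 14 partners and regulators of C/EBP proteins were read in the same way. They had promoter peaks in 10 and 9 genes in the controls and in 8 and 11 with esculetin, against 37.3% and 38.8%, and 27.9% and 34.9%, of all coding genes. In 7 of the 14 a peak was called in all 4 libraries (24.8% of coding genes). In 3 it was called in none (56.4%), at the single 5′ end used for each gene. In no gene was it called in both controls and neither esculetin library (3.34%), or in both esculetin libraries and neither control (0.41%). Ddit3 encodes CHOP, a C/EBP family member that forms dimers with other C/EBP proteins under stress. Its promoter peak had percentiles of 73.6 and 81.1 in the controls and 92.7 and 93.3 with esculetin. The summit coverage was 8.91 and 15.4 times the background against 16.9 and 19.3 times. Both esculetin values lay above both controls on both scales. By percentile this was so for 14.7%, and by summit coverage for 18.4%, of the 5323 genes. Among the other partners, Nfya and Nfyb, genes of the CCAAT-binding factor NF-Y, also had both esculetin coverages above both controls. These were 16.1 and 19.8 times against 11.1 and 12.01 times the background at Nfya, and 9.06 and 14.1 times against 8.14 and 8.34 times at Nfyb, while the percentiles of the groups overlapped at both genes.

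Atf4, whose product forms dimers with C/EBPγ and C/EBPβ, had a promoter peak in control replicate 1 at percentile 66.4, none in control replicate 2, and peaks at 78.4 and 89.0 with esculetin. Its summit coverage was 7.22 times the background in control replicate 1 and 10.7 and 14.9 times with esculetin. Trib1, which promotes the breakdown of C/EBPα, had percentiles of 69.4 and 76.9 in the controls and 83.2 and 67.6 with esculetin, which overlap. Its relative Trib2 had a peak in esculetin replicate 2 alone, at percentile 55.9. Trib3, of the same family, had percentiles of 66.5 and 52.2 in the controls, no peak in esculetin replicate 1 and 13.1 in esculetin replicate 2. Spi1, the gene of PU.1, with which C/EBP factors share many macrophage enhancers, had 66.5 and 45.5 in the controls and 17.0 and 49.9 with esculetin, also overlapping. Cebpzos, at the 3′ end of Cebpz, had percentiles of 63.1 and 76.1 in the controls and 54.4 in esculetin replicate 2, with no peak in esculetin replicate 1, a pattern of 5.56% of coding genes.

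**Figure D5:**
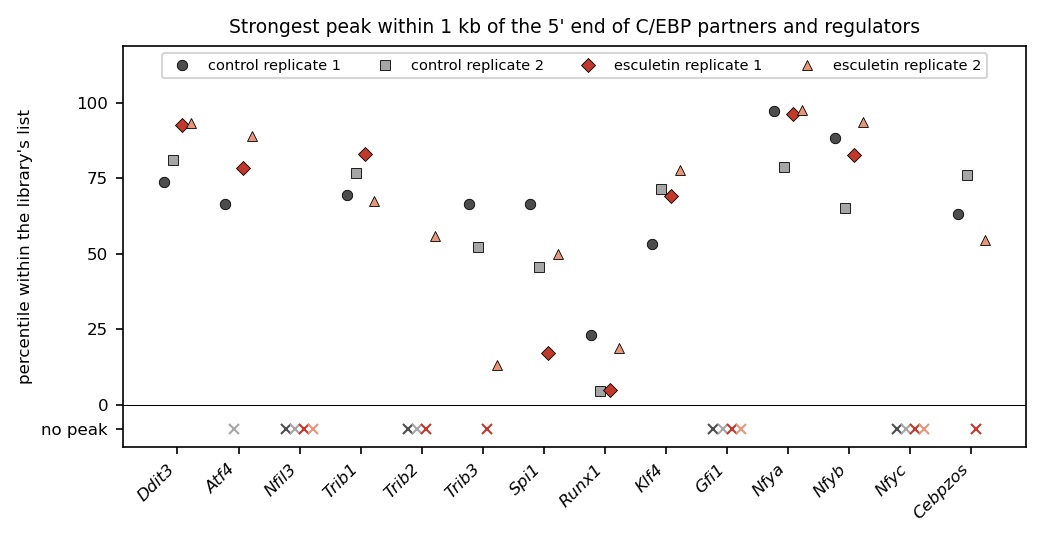
Percentile of the strongest promoter peak of 14 partners and regulators of C/EBP proteins, with points for single libraries and crosses for libraries with no promoter peak. At Ddit3 both esculetin points, at 92.7 and 93.3, lie above both control points. Nfil3, Gfi1 and Nfyc have no promoter peak in any library at the single 5′ end used for each gene.

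Of 30 genes known as C/EBP targets in myeloid cells, macrophages or fat cells, few had a promoter peak at the 5′ end used here. The numbers were 5 and 8 in the controls and 2 and 1 with esculetin, where 37.3%, 38.8%, 27.9% and 34.9% of all coding genes had one. In 21 of the 30, among them Csf1r and Cd36, no library had one (56.4% of all coding genes). Nceh1 was the 1 gene called in all 4 libraries (24.8% of all coding genes), with 5.99 and 8.58 times the background in the controls and 5.84 and 10.98 times with esculetin. Csf2rb, a receptor chain for growth factors, and Lpl, the lipase of triglyceride-rich particles, had a promoter peak in both controls and in no esculetin library (3.34% of all coding genes), with 5.69 and 5.15 times the background at Csf2rb and 4.46 and 4.66 times at Lpl. No target had one in both esculetin libraries and no control (0.41%). Lyz2, the gene of macrophage lysozyme, was among 4 called in control replicate 2 alone (2.47% of all coding genes).

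Among the other coding genes, those most like each member were found by the same presence of promoter peaks over the 4 libraries and the smallest largest difference in percentile. For Cebpb, of 146 genes with its pattern of presence, these included Camsap2 and Sipa1, within 7.18 and 8.41 percentile points over 3 libraries. In control replicate 2 this match used the stronger Cebpb peak, 847 bp into the gene, and not the peak at the TSS. For Cebpg they were Orai1, Adipor1 and Ctsc, within 3.27, 4.49 and 4.62 points over 4 libraries. For Cebpd they were Mtx1 (6.53) and the pair 4921536K21Rik and Dusp18 (6.78 each, from the same values), and for Cebpz they were Ndufaf7, which shares its peak, Zscan20 (1.88) and Acat1 (1.94). For Cebpa, over 2 libraries, they were Zfp764, Ly6e and Pnpla6 (2.07, 5.25 and 5.49), and for Cebpe, over 1 library, Plcl2, Ckap4 and Tnip1, all within 0.349.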

How the data were processed

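The authors used Trim Galore to trim reads and Bowtie2 to map them to mm10. Sambamba then took out duplicates and reads with several matches, and MACS2 called the peaks, with 1 deposited list per library. The options of these tools, and whether read ends were moved for the cut of Tn5, were not given in the sources used here. The deposited fold enrichment of each summit is a linear ratio. The deposited −log10 p and −log10 q grow with sequencing depth. The deposited score follows the −log10 q and was not used. Removal of multiply mapped reads lowers signal in repeated sequence. The lists hold no read counts, so no count model was fitted.

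The fold is (coverage + 1)/(background + 1) and p is a Poisson tail, so both numbers were solved for each peak. Of peaks with −log10 p under 60, 100% gave a whole coverage within 0.001 in −log10 p. The solver was tested on simulated data. The percentile of a peak is its mid-rank by −log10 p within its whole list. For a library without a promoter call, the least coverage that would have reached the lowest −log10 p of its list was computed for the range of local backgrounds (relative to the genome-wide one) at that promoter in the other libraries. A call also needs a stretch of at least 200 bp. Regions were made by merging peaks that shared 1 bp on chromosomes 1 to 19, X and Y.

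Genes were taken from RefSeq on GRCm38.p6, with 1 TSS each at the 5′ end. The strand came from the RefSeq promoter table (3 members) or, by symbol or synonym on the same chromosome, from GENCODE vM39, whose coordinates were not used. This gave 21467 of 21887 coding genes a TSS (98.1%). Groups were taken from the treatment labels. The peak names inside the 2 esculetin lists number those libraries differently from their titles, and titles were followed. Percentiles and peak numbers of single genes were compared by exact permutation, two-sided, over the 6 ways to divide the 4 libraries (smallest p 0.33). The members, gene lists and tests were chosen with earlier results of these data known. Named genes were the 6 members; 6 partners; targets called in both libraries of 1 group only, with Cd36, Csf1r and Lyz2; the 3 genes most like each member, of which 1 is not reported here; and genes whose starts lie at a named peak. Nceh1, Trib3, Nfya, Nfyb, Tmem189, Spidr, Nfil3, Gfi1, Nfyc and the remaining macrophage markers were named after their values were seen. Computations used Python 3.11.15, NumPy 2.4.6, pandas 2.3.3, SciPy 1.17.1 and matplotlib 3.10.9.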

Additional observations from a re-analysis of the deposited data

How the results depend on the processing

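With 2 libraries per group the exact permutation test cannot pass a conventional threshold, so only directions and sizes are given. With equal numbers of top peaks (8677 per library), the percentile difference, esculetin minus control, became 14.9 at Cebpg (from -17.6) and 14.6 at Cebpz (from -7.65), and could not be had at Cebpd, whose peak in control replicate 2 was past the limit. The difference in peaks per library over the windows became 1 (from -5.5), regions of the controls alone became 0 (from 2), and regions of the esculetin libraries alone became 1 (from 0), the Cebpb promoter. Windows from 10 kb before the 5′ end also left 0 regions of the controls alone, and a difference in peaks of -2. Ranking by fold enrichment turned the Cebpd difference to 10.5 (from -1.09). Summit coverage over background kept the direction of all 3 differences (-0.659, -0.393 and -0.725 at Cebpd, Cebpg and Cebpz).

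When each library was left out in turn, the Cebpd difference ranged from -21.1 to 18.9, the Cebpg difference from -20.4 to -14.9 and the Cebpz difference from -11.7 to -3.56. Regions of the controls alone ranged from 2 to 10 (10 without control replicate 1 and 4 without esculetin replicate 2), regions of the esculetin libraries alone from 0 to 3 (3 without esculetin replicate 1 and 1 without control replicate 2), and genes with a promoter peak in every library kept from 3 to 4. The difference in peaks ranged from -9 to -2. A group left with 1 library has no spread, and these values have no test. The cause of these changes was not tested, beyond the shorter lists or fewer libraries that each setting makes.

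The replicate numbers are not shown to pair libraries. The within-group deviations of same-numbered libraries had r = 0.0062 across 5323 genes, which are not independent replicates. With the replicate number as a block the Cebpg difference is again -17.6, and the sign-flip test of 2 differences cannot go below p = 0.5 (exact).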
